A study of Homo sapiens with 12 samples.

Results

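Resveratrol (RES) was compared with its solvent DMSO in NS-SV-AC cells that had been transfected with poly I:C, with 2 libraries a group. These 4 libraries are 4 of the 12 in the series, and they were taken by their titles. All 60609 annotated genes were read, and the 15163 with a TPM (transcript abundance per length, scaled to the library's total) of 1 or more in at least 2 of the 4 libraries were tested. NS-SV-AC is an SV40-immortalised line of human salivary acinar origin, and a line stands for one lineage of cells, not for a gland. Both groups received the synthetic double-stranded RNA for 14 h. Resveratrol was given at a labelled dose of 20 μm, the unit as the label prints it, 24 h ahead of the poly I:C and once more together with it. The DMSO cultures received an equal volume of solvent. The same compounds with the mock condition labelled depc (2 libraries each) served as the comparison without poly I:C, and the 4 libraries of the third compound, 2-CM, entered the estimate of spread. The series title concerns mitochondrial double-stranded RNA in Sjogren's syndrome.

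Poly I:C mimics viral double-stranded RNA. In epithelial cells it is detected by the cytosolic helicases RIG-I (DDX58) and MDA5 (IFIH1), by TLR3 and by the kinase PKR (EIF2AK2), and the signal passes through IRF and NF-kB factors to interferon and to interferon-induced effector genes. Resveratrol is a plant polyphenol that is known as a sirtuin-linked compound, as an antagonist of the aryl hydrocarbon receptor and as an inhibitor of cell growth. Several stress programmes are relevant to such a compound: ATF4 drives amino acid synthesis and DDIT3 when translation initiation is slowed, p53 drives growth arrest genes, and NRF2 drives antioxidant enzymes.

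The line's identity was checked first. Of 15 salivary acinar markers, 1 passed the filter, and AQP5, MUC7, STATH, HTN1, PIP, BPIFA2 and PRB1 were at 0 in all 4 libraries. The highest acinar marker, the secretory transcription factor BHLHA15, had a mean TPM of 0.834. Of 8 epithelial and ductal markers 4 passed the filter, and the list summed to 1102 and 1735 TPM with DMSO and 1376 and 1102 with resveratrol. The simple-epithelium keratin KRT8 had a mean TPM of 786, whereas the epithelial adhesion molecules CDH1 (0.189 to 0.366) and EPCAM (0.219 to 0.761), the ductal keratin KRT19 (at most 0.0782) and ELF5 (0 in all 4) stayed below a TPM of 1. Of 8 immune markers, PTPRC, CD3D, CD3E, MS4A1 and HLA-DRA were at 0, while 2, CD68 and CD14, passed the filter. CD14 was the highest, at a mean TPM of 9.64. Basal and myoepithelial markers summed to 16.6 and 21.0 TPM with DMSO and 33.8 and 26.02 with resveratrol, with KRT5 and KRT14 at 0 in all 4. Fibroblast markers summed to 85.1 and 51.1 against 50.9 and 70.9, and immune markers to 11.9 and 14.2 against 22.7 and 13.1. The part of these markers in the results was not tested. In bulk RNA, fewer cells of a kind and less RNA per cell cannot be told apart.

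The 4 libraries held 4.28 to 5.45 Gb of assigned sequence, and 13438 to 15431 genes reached a TPM of 1. Replicates within a group stood apart along the GC content of the genes. In the lowest of 10 GC bins (median GC 38.1%), DMSO replicate 1 exceeded replicate 2 by a median of 1.32 log2 units, and resveratrol replicate 1 fell short of replicate 2 by a median of -1.18. In the highest bin (63.9%) the same differences were -0.33 and 0.43. The group means differed far less along GC, from 0.45 in the lowest bin to 0.24 in the highest. Calls after a correction of each library for its GC trend are therefore given beside the gene lists below. The correction also removes differences in level between libraries. It took the median of resveratrol minus DMSO over all genes from 0.30 to 0.008. Calls after it, lower ones above all, thus also reflect this change of scale. Log2 fold changes are differences of log2(TPM + 1), resveratrol minus DMSO, and they understate changes of low genes.

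**Figure D1:**
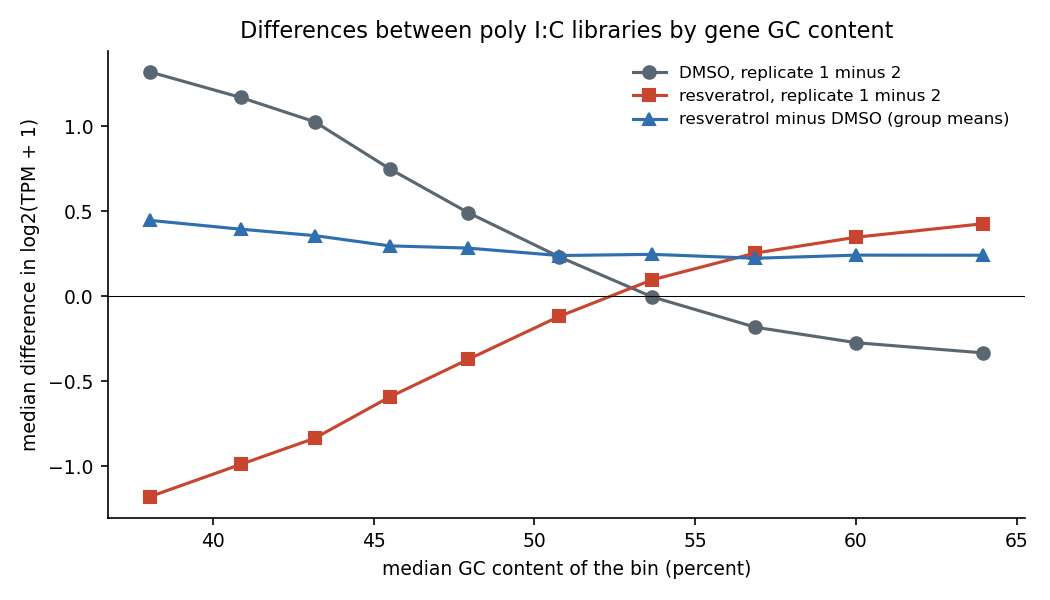
Median difference in log2(TPM + 1) over genes (vertical axis) in 10 bins of gene GC content (horizontal axis, median percent of the bin) for DMSO replicate 1 minus 2 (circles), resveratrol replicate 1 minus 2 (squares) and the 2 group means (triangles), all with poly I:C. The replicates differ in opposite directions in the 2 groups (1.32 and -1.18 in the lowest bin), while the difference of the means runs from 0.45 to 0.24.

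A set of genes differed between the resveratrol and DMSO libraries with poly I:C, and its size depended on the libraries fitted and on the scaling. DHRS2, EDN2, SLPI, the mitotic kinase PLK1, the anaphase regulator CDC20 and 6 histone genes were lower, and DDIT3, ICAM1, HBEGF, BTG2, PLA2G4C and CD74 were higher. In limma with Benjamini-Hochberg adjustment, 41 genes passed an adjusted p of 0.05 and are termed called, 0.270% of those tested. Of these, 22 were higher (0.145%) and 19 lower (0.125%), and at an unadjusted p under 0.05 there were 2169. Among the 41, 11 reached a TPM of 1 only in the group where they were high, so they had to differ in order to be tested, and their calls are descriptions. They were GLS2, ULBP1, INA, LINC01589, LINC01786, AL354740.1 and ASNSP1 (higher) and GAS1, SLC12A3, SERPINA3 and AP001059.1 (lower). Over all genes tested, 28.0% lay higher and 6.90% lower with no overlap between the resveratrol and DMSO libraries. Over all genes tested, the contrast had a median of 0.30 on the log2 TPM scale, and 0.01 after median-of-ratios scaling. On the TPM scale it was 0.49 without DMSO replicate 1, 0.06 without DMSO replicate 2, 0.43 without resveratrol replicate 1 and 0.12 without resveratrol replicate 2. Median-of-ratios scaling gave 5 higher and 18 lower calls, upper-quartile scaling gave 3 and 17, FPKM in place of TPM gave 7 and 11, and the GC correction gave 738 and 828. Each of the 41 kept its sign under every alternative in which it was tested. None of the 41 overlapped between groups, so leaving out a single library could not turn a sign. Fits that changed only the libraries of other groups, or added a block or covariate, left the fold changes as they were. A sign could turn only under a change of measure or scaling or under the GC correction. Of the 36 genes with a GC value, 33 were also called after the GC correction. Of the 41, 7 were also called with upper-quartile scaling and 11 with median-of-ratios scaling. With the latter EDN2 and HBEGF kept their call, and DHRS2, SLPI, PLK1, CDC20, DDIT3, ICAM1, BTG2, PLA2G4C and CD74 did not.

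The number of calls changed when single libraries were left out. Without DMSO poly I:C replicate 1 it was 1, without replicate 2 it was 0. Without resveratrol poly I:C replicate 1 it was 4, and without replicate 2 it was 2. It was 0 when DMSO depc replicate 1 or 2 was left out, 0 for 2-CM poly I:C replicate 1 or 2, 2 for 2-CM depc replicate 1 or 2, 27 without RES depc replicate 1 and 33 without RES depc replicate 2. A fit of the 4 libraries alone called 0 genes in limma, with 799 at an unadjusted p under 0.05. An exact permutation test of 2 libraries against 2 cannot give a two-sided p under 0.333.

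**Figure D2:**
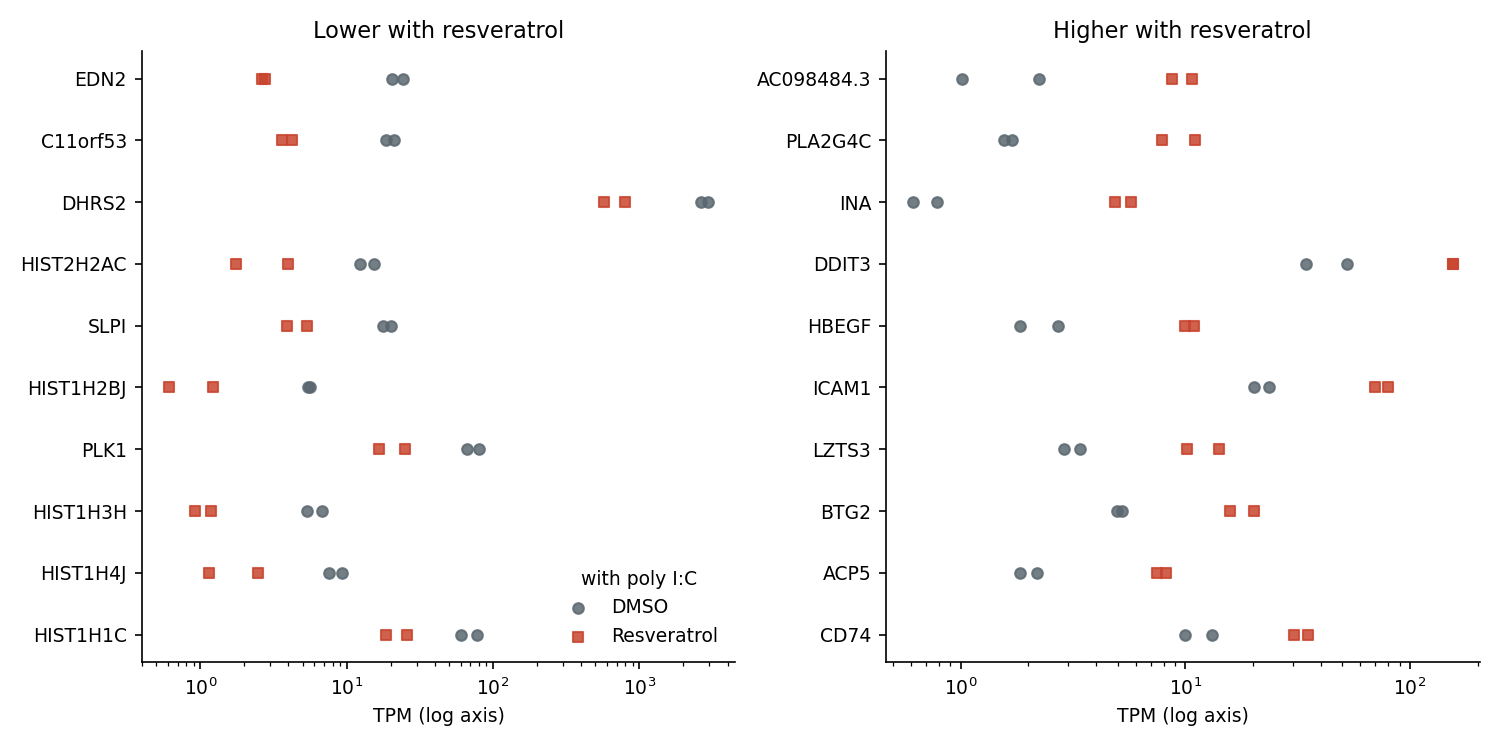
TPM in each library (horizontal log axis) of the 10 named protein-coding genes called lower (left) and the 10 called higher (right), for DMSO (circles) and resveratrol (squares), both with poly I:C, 2 points a group. No resveratrol point lies within the range of the DMSO points, and DHRS2 sits between 571 and 2965.

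DHRS2, a short-chain dehydrogenase of mitochondria, was the most abundant of the called protein-coding genes with a lower level. Its TPM was 2616 and 2965 in the DMSO libraries and 800 and 571 in the resveratrol libraries. Both resveratrol values were thus below both DMSO values by a wide margin. The log2 fold change was -2.04 (SE 0.17, limma adjusted p = 0.014), and -2.27 after the GC correction. When a single DMSO or resveratrol library with poly I:C was dropped from the fit, the uncorrected fold change lay between -2.29 and -1.80. Dropping a library of any other group cannot change this estimate. The gene (ENSG00000100867.14) spans chr14:23630115-23645639 on hg38.

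The other named lower genes had varied functions. EDN2, which encodes a vasoconstrictor peptide of the endothelin family, had a TPM of 20.5 and 24.4 with DMSO against 2.62 and 2.76 with resveratrol. Its log2 fold change of -2.66 (SE 0.30, adjusted p = 0.023) was the furthest from 0 among the lower calls. C11orf53, a cofactor of the transcription factor POU2F3, went from 18.6 and 21.1 to 4.20 and 3.64. Its log2 fold change was -2.08 (SE 0.22, adjusted p = 0.020), and as for EDN2 the groups were far apart. ID1, an inhibitor of helix-loop-helix factors that is induced by BMP signals, had 369 and 422 TPM with DMSO and 206 and 155 with resveratrol (log2 fold change -1.14, SE 0.17, adjusted p = 0.049). GAS1, a growth-arrest surface protein, had a log2 fold change of -1.60, and the ion transport genes SLC12A3 and SCNN1A had -1.54 and -1.09. GAS1 and SLC12A3 passed the filter through the DMSO libraries alone, so their calls are descriptions. NME1-NME2, a readthrough of the nucleotide kinase genes NME1 and NME2, had -1.21, but it shares exons with both genes and its share of their reads is uncertain. SCNN1A overlaps LTBR on the opposite strand, and the transcript files record no strand option.

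2 of the genes called lower encode protease inhibitors, and both were low in the depc libraries. SLPI, an inhibitor of neutrophil elastase made by mucosal epithelium, had 17.6 and 20.0 TPM with DMSO and poly I:C and 5.32 and 3.94 with resveratrol and poly I:C. Its log2 fold change was -1.83 (SE 0.23, adjusted p = 0.032). Without poly I:C it stood at 3.79 and 3.49 with DMSO and at 4.82 and 6.16 with resveratrol. The resveratrol libraries with poly I:C were therefore within the range of the depc libraries. SERPINA3, an acute-phase inhibitor of chymotrypsin-like proteases, had 1.63 and 1.95 TPM with DMSO and poly I:C and at most 0.0944 in the other 6 libraries of the 4 groups, so it passed the filter through the DMSO poly I:C libraries alone. The test of the difference between the resveratrol contrasts with and without poly I:C gave an unadjusted p of 6.3e-05 and an adjusted p of 0.48 in limma for SLPI, which was therefore not called.

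Of the 20 mitosis genes on the list, all tested, 2 were called, PLK1 and CDC20, both lower. Without overlap, 10 lay lower and 0 higher, against 6.90% and 28.0% of all genes. Their median log2 fold change was -0.46, or -0.76 relative to the median of all genes. It was -0.29 without DMSO replicate 1, -0.89 without DMSO replicate 2, -0.25 without resveratrol replicate 1 and -0.78 without resveratrol replicate 2, and relative to all genes it then lay between -0.95 and -0.68. The GC-corrected fit called 12 of the 20 lower and 0 higher, against 5.60% and 4.99% of the genes then tested. The list's summed TPM was 2221 and 1697 with DMSO and 1003 and 1275 with resveratrol. PLK1, the kinase that drives spindle assembly and mitotic exit, had 66.6 and 79.9 TPM with DMSO and 25.1 and 16.6 with resveratrol (log2 fold change -1.79, SE 0.21, adjusted p = 0.024). CDC20, which activates the anaphase-promoting complex, had 276 and 368 against 135 and 92.8 (log2 fold change -1.50, SE 0.21, adjusted p = 0.040). UBE2C, the ubiquitin-conjugating enzyme of that complex, was not called (400 and 481 against 267 and 177, adjusted p = 0.070), nor was the kinesin KIF20A (96.5 and 59.4 against 20.9 and 33.0, adjusted p = 0.14). After the GC correction their adjusted p values were 0.018 and 9.3e-04. PLK1 and CDC20 were also called with the depc libraries, at -2.02 and -1.64.

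Promoters of mitotic genes carry a cell cycle homology region, which the repressive DREAM complex binds in arrested cells and the activating B-MYB-MuvB complex in cycling cells. Its form TTTGAA was searched on both strands in RefSeq promoters (GRCh38.p14, 250 bases before to 50 after the start), with the first listed window of each gene. It was found in 11 of the 17 mitosis genes with an entry, in 15.4% of all 27305 promoters and in 9.16% of those of tested genes. The PLK1 and CDC20 promoters are shown because both genes were called, with the matched letters in capitals.
PLK1 (chr16:23678639-23678938, plus strand): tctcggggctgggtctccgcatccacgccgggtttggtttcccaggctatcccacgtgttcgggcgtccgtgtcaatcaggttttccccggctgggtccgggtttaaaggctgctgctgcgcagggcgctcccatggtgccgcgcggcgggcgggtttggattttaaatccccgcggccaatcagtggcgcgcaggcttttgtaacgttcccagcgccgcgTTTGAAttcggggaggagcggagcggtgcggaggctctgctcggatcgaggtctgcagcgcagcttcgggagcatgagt
CDC20 (chr1:43358731-43359030, plus strand): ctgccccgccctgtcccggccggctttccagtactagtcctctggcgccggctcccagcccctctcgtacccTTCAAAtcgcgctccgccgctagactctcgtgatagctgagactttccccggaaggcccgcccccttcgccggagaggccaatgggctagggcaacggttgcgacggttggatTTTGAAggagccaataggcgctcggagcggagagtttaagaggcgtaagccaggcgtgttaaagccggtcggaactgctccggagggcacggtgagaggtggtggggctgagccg
The match in PLK1 begins 29 bases before the start. CDC20 has 2 matches, which begin 178 and 65 bases before the start, the first on the opposite strand (TTCAAA as printed). A match is a description of the letters, and binding was not measured.

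Of the 28 DNA replication genes, all tested, 0 were called. Without overlap, 10 lay higher and 0 lower, against 28.0% and 6.90% of all genes. Their median of 0.42 was 0.12 above that of all genes (-0.04 in itself under upper-quartile scaling). It was 0.74 without DMSO replicate 1, 0.07 without DMSO replicate 2, 0.69 without resveratrol replicate 1 and 0.09 without resveratrol replicate 2. Relative to all genes it then lay between -0.03 and 0.26. RFC2, a subunit of the clamp loader, had 153 and 147 TPM with DMSO and 214 and 217 with resveratrol (adjusted p = 0.17), and the origin licensing factor CDC6 had 43.7 and 23.0 against 50.5 and 84.3 (adjusted p = 0.44). Only RFC2 of this list had an unadjusted p under 0.05, and 0 of its genes were called after the GC correction.

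Histone genes were taken as all 32 tested symbols that begin with HIST, a set chosen after its values were seen. 29 of the 32 had a log2 fold change below 0, and 26 lay lower and 1 higher without overlap, against 6.90% and 28.0% of all genes. The median was -0.95, and between -1.01 and -0.66 with each of the 4 libraries left out. Only 12 of the 32 had a GC value, too few to read the GC correction for the set, and 6 of those 12 were called lower in it. 6 were called, all lower, against 0.125% of all genes: HIST2H2AC (12.3 and 15.4 against 3.99 and 1.75 TPM), and with their log2 fold changes HIST1H2BJ (-1.79), HIST1H3H (-1.78), HIST1H4J (-1.78), HIST1H1C (-1.61) and HIST1H2BK (-1.59). HIST1H1C, a linker histone H1, had 60.7 and 78.1 TPM with DMSO and 25.8 and 18.5 with resveratrol. HIST1H2BK had 39.7 and 47.7 against 13.4 and 14.2. The summed TPM of the 32 genes was 253 and 281 with DMSO and 118 and 88.3 with resveratrol, so the groups were separate. Replication-dependent histone mRNAs end in a stem-loop and not in a poly(A) tail, and these libraries were made from poly(A) RNA, so the values cover the part of these transcripts that was captured. Histone genes have near-identical copies, and the split of reads between them is uncertain. In the depc libraries 7 of the 32 were called lower, against 1.23% of all genes called in either direction, and the median was -0.90.

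Of the 24 genes of the ATF4 amino acid stress response, all tested, 1 was called, DDIT3. Without overlap, 10 lay higher and 2 lower, against 28.0% and 6.90% of all genes, and the median of 0.53 was 0.23 above that of all genes. The median was 0.33 without DMSO replicate 2, and between 0.46 and 0.61 without each of the other 3 libraries. The GC-corrected fit called 8 of them higher and 3 lower (SLC7A5, DDIT4 and CEBPB, named after their values were seen), against 4.99% and 5.60% of all genes. DDIT3, the stress-induced C/EBP factor also called CHOP, had 52.2 and 34.3 TPM with DMSO and 155 in both resveratrol libraries (log2 fold change 1.85, SE 0.24, adjusted p = 0.034). DDIT3 overlaps exons of MARS and MBD6 on the opposite strand. CHAC1, which degrades glutathione, had 4.14 and 5.60 against 30.9 and 18.2, with a log2 fold change of 2.09 (SE 0.34) that was just short of a call (adjusted p = 0.056). GDF15, a stress-induced cytokine that also stands on the p53 list, had 5.23 and 6.06 against 23.2 and 16.0 (adjusted p = 0.070). ATF3, a stress-induced repressor, had 13.1 and 8.24 against 25.1 and 33.9 (adjusted p = 0.14). All 4 genes had no overlap between groups, and all 4 were called after the GC correction. The non-coding ASNSP1, a pseudogene of asparagine synthetase ASNS, was called at 2.40 (0.682 and 0.389 TPM against 6.55 and 7.66), but reads of ASNS itself could be assigned to it. ASNSP1 also passed the filter through the resveratrol libraries alone, so its call is a description. ASNS had 28.9 and 13.2 against 62.0 and 83.1 TPM (log2 fold change 1.82, SE 0.61, adjusted p = 0.21).

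The C/EBP-ATF composite element was searched in the form TGATGNAA on both strands in the same promoter windows. It was found in 4 of the 19 ATF4-list genes with an entry (ASNS, ATF3, CHAC1 and SLC3A2), in 3.67% of all promoters and in 1.56% of those of tested genes. The windows of DDIT3 held none. ASNS and CHAC1 are shown with the match in capitals, chosen after their values were seen.
ASNS (chr7:97872359-97872658, minus strand): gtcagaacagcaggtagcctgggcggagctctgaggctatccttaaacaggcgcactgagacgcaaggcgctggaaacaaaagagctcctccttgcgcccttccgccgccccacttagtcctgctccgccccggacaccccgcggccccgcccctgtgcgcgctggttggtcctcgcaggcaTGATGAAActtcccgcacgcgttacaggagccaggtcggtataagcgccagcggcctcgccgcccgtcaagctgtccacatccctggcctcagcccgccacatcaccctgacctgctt
CHAC1 (chr15:40953221-40953520, plus strand): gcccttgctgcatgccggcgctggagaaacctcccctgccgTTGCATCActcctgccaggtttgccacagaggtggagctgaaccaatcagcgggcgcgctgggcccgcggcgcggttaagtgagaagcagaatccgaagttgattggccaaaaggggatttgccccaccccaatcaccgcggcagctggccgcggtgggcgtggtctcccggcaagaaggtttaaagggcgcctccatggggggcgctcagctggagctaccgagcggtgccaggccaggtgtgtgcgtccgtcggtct
The match begins 68 bases before the start in ASNS and 209 bases before it in CHAC1, where it lies on the opposite strand. A second RefSeq window of ASNS, chr7:97872116-97872415, which overlaps the first, held no match. Beside this list, the unfolded protein response list had 0 called of 17 genes and a median of 0.43 (0.71 without DMSO replicate 1, 0.19 without DMSO replicate 2, 0.65 without resveratrol replicate 1 and 0.31 without resveratrol replicate 2). It had 8 genes higher without overlap, against 28.0% of all genes, and 12 of the 17 were above the median of all genes. Of the 17, 1 was called higher and 0 lower in the GC-corrected fit, against 4.99% and 5.60% of all genes. XBP1, its central transcription factor, had 86.0 and 76.0 TPM against 119 and 127 (adjusted p = 0.39). The heat shock list had a median of -0.09 over 10 genes, with 0 called. After the GC correction 3 of the 10 were called lower, against 5.60% of all genes. The median was -0.22 without DMSO replicate 2 and -0.17 without resveratrol replicate 2, and -0.04 and -0.05 without the other replicate of each group.

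Of 20 listed NF-kB targets and inhibitors 15 were tested, as 16 gene entries because SOD2 has 2 gene IDs, and 1, ICAM1, was called. Without overlap, 10 of the 16 entries lay higher and 0 lower, against 28.0% and 6.90% of all genes. Of the 16 entries, 13 were above 0, as were 11749 of all 15163 genes, and 11 were above the median of all genes. The list's median of 0.68 was 0.38 above that of all genes and stayed above 0 under every scaling tried (0.35 to 0.87). It was 0.37 without DMSO replicate 2, and between 0.64 and 0.83 without each of the other 3 libraries. ICAM1, the adhesion molecule that binds leukocyte integrins and that is on the Sjogren-related list as well, had 20.3 and 23.6 TPM with DMSO and 80.0 and 69.9 with resveratrol (log2 fold change 1.73, SE 0.17, adjusted p = 0.017). NFKB2 and RELB, the pair of subunits of the non-canonical pathway, had 25.2 and 32.8 against 81.4 and 60.3 (adjusted p = 0.067), and 12.4 and 17.5 against 56.2 and 35.5 (adjusted p = 0.070). Neither was called before the GC correction and both were called after it, with 5 of the 16 entries higher and 1 lower, against 4.99% and 5.60% of all genes then tested. Of 10 Sjogren-related genes 7 were tested, 1 was called (ICAM1), and 3 lay higher and 1 lower without overlap. ICAM1 was also the 1 call among these 7 in the GC-corrected fit. ICAM1 spans chr19:10271093-10286615, and it stood at 33.9 and 35.8 against 96.7 and 112 TPM with depc, where it was also called.

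The kB form GGAANTTCC, which reads alike on both strands, was found in the promoter windows of 8 of 19 genes of this list and in 0.967% of all promoters. ICAM1 is shown with its match in capitals, since it is the called gene of the list.
ICAM1 (chr19:10270870-10271169, plus strand): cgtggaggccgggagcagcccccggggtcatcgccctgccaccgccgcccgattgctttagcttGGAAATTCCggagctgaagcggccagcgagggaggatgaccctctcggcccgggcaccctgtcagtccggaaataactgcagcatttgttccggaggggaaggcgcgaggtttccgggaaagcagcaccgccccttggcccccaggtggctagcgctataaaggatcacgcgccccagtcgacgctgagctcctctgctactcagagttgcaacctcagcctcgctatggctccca
The match begins 186 bases before the start.

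Of the 20 p53 targets, all tested, 1 was called, BTG2. Without overlap, 10 lay higher and 0 lower, against 28.0% and 6.90% of all genes, and the median of 0.56 was 0.26 above that of all genes. BTG2, an antiproliferative p53 target, had 5.20 and 4.98 TPM with DMSO and 20.2 and 15.8 with resveratrol (log2 fold change 1.63, SE 0.21, adjusted p = 0.033), and the groups were far apart. TP53I3, a quinone oxidoreductase, had 56.2 and 65.9 against 134 and 110 (adjusted p = 0.056). The GC-corrected fit called 6 of the 20 higher and 0 lower, against 4.99% and 5.60% of all genes. The SV40 large T antigen of such lines binds p53. TP53INP2, an autophagy factor, and GLS2, a glutaminase that p53 induces, were called at 1.41 and 1.00. GLS2 passed the filter through the resveratrol libraries alone, so its call is a description. HBEGF, a ligand of the EGF receptor, had 2.70 and 1.83 TPM against 10.9 and 9.94 (log2 fold change 1.82, SE 0.27, adjusted p = 0.049). Of 17 immediate early and growth factor feedback genes tested 0 were called, and 10 lay higher and 3 lower without overlap, against the same 28.0% and 6.90%. With the GC correction, 5 of the 17 were called higher (SPRY4, EGR1, DUSP5, IER3 and FOSL1) and 1, FOSL2, lower, against 4.99% and 5.60% of all genes. EGR1, a growth-factor-induced transcription factor, had 20.7 and 19.1 against 42.4 and 34.8 (adjusted p = 0.070).

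The other higher calls had varied functions. PLA2G4C, a phospholipase A2, had 1.69 and 1.56 TPM with DMSO and 11.0 and 7.89 with resveratrol (log2 fold change 1.98, SE 0.22, adjusted p = 0.023). CD74, the invariant chain of MHC class II, had 9.99 and 13.2 against 35.2 and 30.5 (log2 fold change 1.44, SE 0.20, adjusted p = 0.040), while the class II chain HLA-DRA was at 0. ULBP1, a stress ligand of the NK cell receptor NKG2D, was called at 1.11. INA, an intermediate filament protein of neurons, had 0.785 and 0.612 against 4.84 and 5.72 (log2 fold change 1.89). ULBP1 and INA passed the filter through the resveratrol libraries alone, so their calls are descriptions. LZTS3, a leucine zipper protein, ACP5, the tartrate-resistant acid phosphatase, MCAM, an adhesion molecule, NDRG4 and COQ10A, a coenzyme Q binding protein, were called at 1.65, 1.55, 1.15, 1.20 and 1.12. AC098484.3 was called at 2.07 and shares exons with C1orf50. AL354740.1, a long non-coding RNA, passed the filter through the resveratrol libraries alone and was called at 2.36 with unequal values (7.90 and 2.40 TPM against 0.0558 and 0.0871 with DMSO). The other called long non-coding RNAs, LINC01589, LINC01786 and AL365181.3 (higher) and AP001059.1 (lower), had a mean TPM under 5 in each group.

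**Figure D3:**
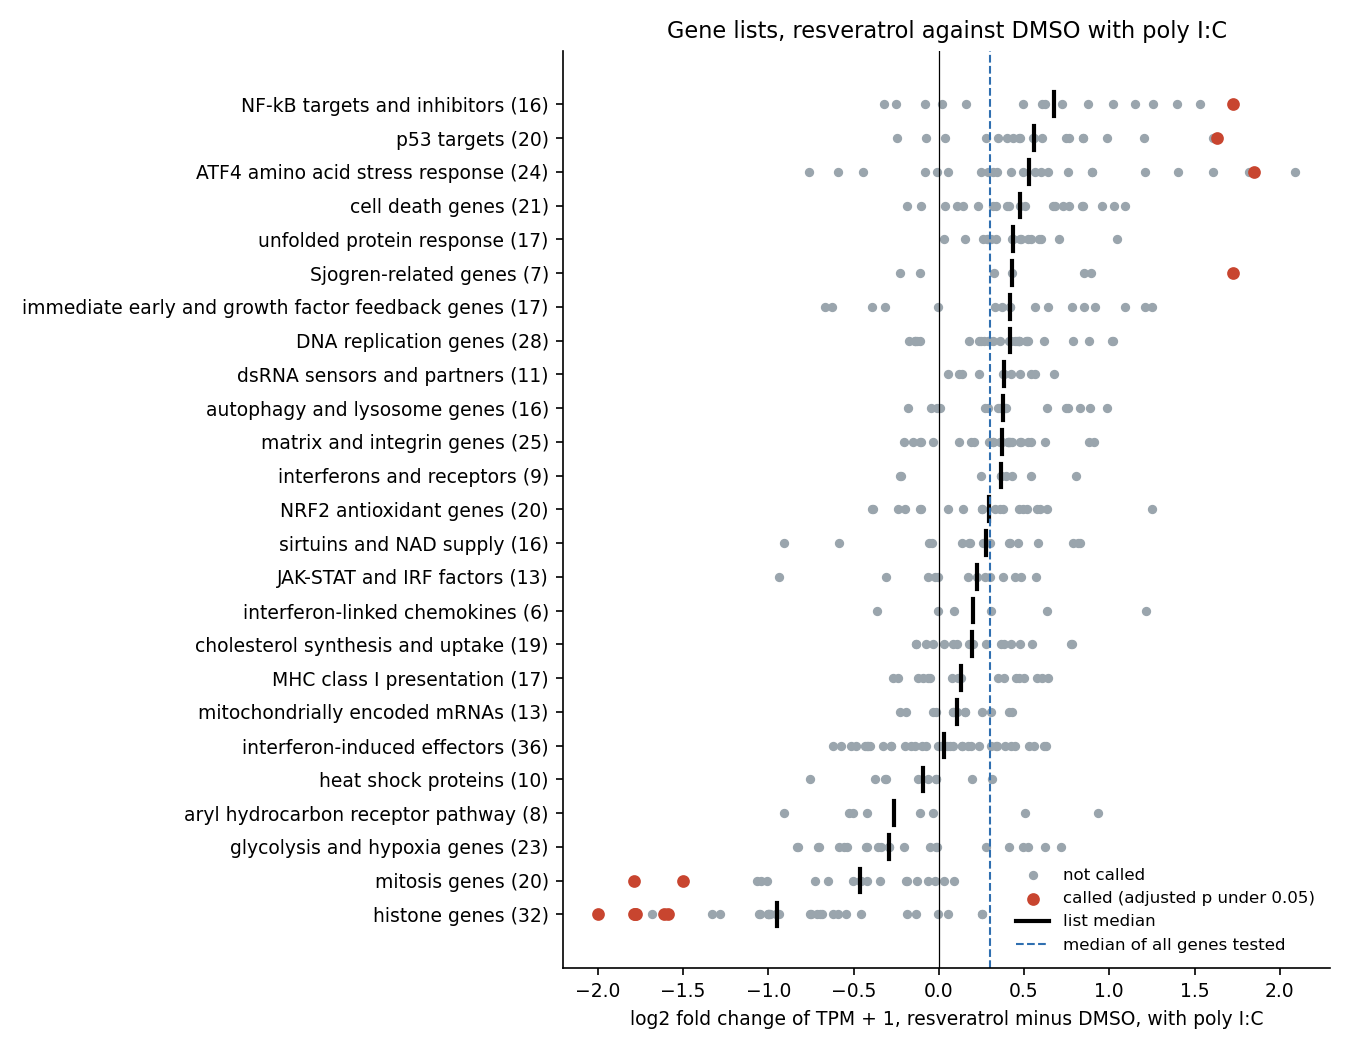
Log2 fold change of TPM + 1, resveratrol minus DMSO with poly I:C (horizontal axis), of each tested gene (points) in each list (number of genes in brackets), with list medians as bars and the median of all genes as a dashed line. Called genes are the larger points, and the mitosis and histone medians (-0.46 and -0.95) lie furthest below the dashed line at 0.30.

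The interferon response, the pathway that poly I:C sets off, had no called gene. All 36 interferon-induced effectors were tested, and 6 lay lower and 2 higher without overlap, against 6.90% and 28.0% of all genes. Of the 36, 19 were above 0, as were 11749 of all 15163 genes, and 10 were above the median of all genes. The median log2 fold change of the 36 was 0.03, which is -0.27 relative to the median of all genes. It was -0.31 after median-of-ratios scaling and -0.23 after the GC correction, so the sign of the median depended on the scale. It was 0.29 without DMSO replicate 1, -0.26 without DMSO replicate 2, 0.39 without resveratrol replicate 1 and -0.33 without resveratrol replicate 2. IFI27, a mitochondrial interferon-induced protein, had 114 and 170 TPM with DMSO and 84.7 and 96.0 with resveratrol. BST2, which tethers budding virus, had 484 and 617 against 435 and 392. IFITM1, which blocks virus entry, had 332 and 435 against 273 and 258, and MX1, a dynamin-like GTPase, had 271 and 259 against 146 and 218. These 4 did not overlap between groups and had unadjusted p values of 0.025 to 0.043 and adjusted p values of 0.26 to 0.33, so they were not called. The GC-corrected fit called 5 of 35 effectors lower, these 4 and CMPK2, and 0 higher, against 5.60% and 4.99% of genes. IFITM1 shares exons with IFITM2.

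ISG15, IFIT1, the sensors and IFNB1 overlapped between the groups. ISG15, the ubiquitin-like effector, had 757 and 1149 TPM with DMSO and 1075 and 887 with resveratrol. IFIT1, which binds viral RNA caps, had 97.5 and 47.7 against 44.5 and 132. The sensors DDX58 (39.6 and 12.9 against 14.5 and 49.2), IFIH1 (18.6 and 9.52 against 13.2 and 29.6) and TLR3 (4.03 and 1.06 against 1.61 and 5.78) had more spread within a group than between the means. IFNB1, interferon beta, had 2.91 and 0.933 against 1.46 and 3.32, and was at 0 in the 4 depc libraries. In IFIT1, DDX58, IFIH1, TLR3 and IFNB1 (GC content 39.9% to 43.2%) the lower DMSO library was replicate 2 and the lower resveratrol library was replicate 1. None of these 5 was called before or after the GC correction. OAS1, which makes the activator of RNase L, had 153 and 155 against 109 and 138 (log2 fold change -0.33, adjusted p = 0.49). SOCS1, the feedback inhibitor of JAK kinases, had 27.6 and 36.9 against 19.9 and 13.1 (log2 fold change -0.94, adjusted p = 0.20). CX3CL1, a chemokine, had 3.92 and 4.82 against 13.2 and 9.89 (log2 fold change 1.22, adjusted p = 0.076). After the GC correction SOCS1 was called lower and TYK2 higher of 13 JAK-STAT and IRF genes, and CX3CL1 higher of 6 chemokines. It called 0 of 8 interferon and receptor genes and 0 of 10 sensors and partners. A further 100 genes, those most raised by poly I:C in the 2-CM libraries, had a median of 0.26 with 0 called, and 2 lay higher and 6 lower without overlap, against 28.0% and 6.90% of all genes. That median was 0.99 without DMSO replicate 1, -0.31 without DMSO replicate 2, 0.94 without resveratrol replicate 1 and -0.31 without resveratrol replicate 2. Of the 98 with a GC value, 8 were called lower and 0 higher in the GC-corrected fit, against 5.60% and 4.99% of all genes. The median GC content of this list was 40.5%, against 49.3% over all genes. In the GC bin with a median of 40.9%, replicate 1 minus 2 had a median of 1.17 with DMSO and -0.99 with resveratrol. The part of this spread in the counts without overlap was not tested.

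**Figure D4:**
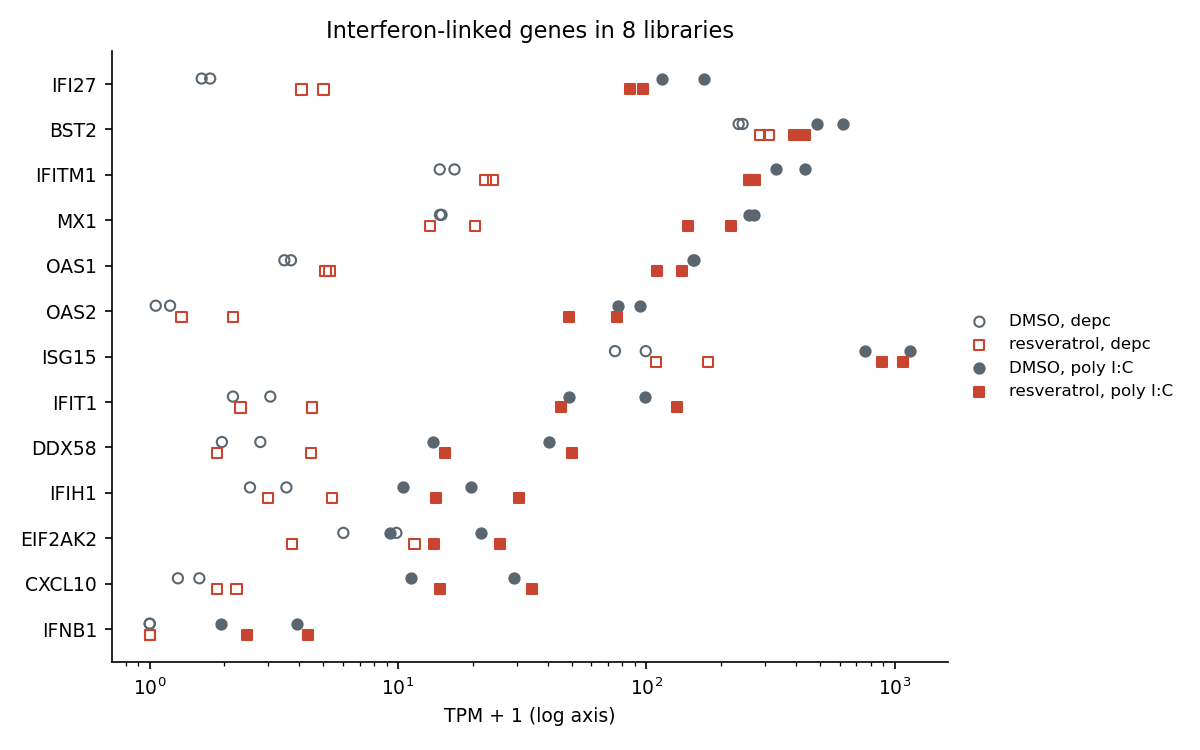
TPM + 1 (horizontal log axis) of 13 interferon-linked genes in the DMSO (circles) and resveratrol (squares) libraries with depc (open) and poly I:C (filled), 2 points a group. Filled points of IFI27, BST2, IFITM1, MX1, OAS1 and OAS2 are lower with resveratrol without overlap, and those of ISG15, IFIT1 and the sensors overlap. The lower ones are all 6 of the 36 effectors that lay lower without overlap, and the 2 that lay higher are not shown.

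Genes linked to resveratrol's known targets gave 0 calls. Of the 8 tested gene entries of the aryl hydrocarbon receptor pathway, 0 were called, with a median of -0.26 (-0.03 without DMSO replicate 1, -0.51 without DMSO replicate 2, -0.19 without resveratrol replicate 1 and -0.36 without resveratrol replicate 2). Without overlap, 3 lay lower and 1 higher, against 6.90% and 28.0% of all genes. The 3 lower entries were 2 gene IDs of AHRR, which share exons, and CYP1A1. CYP1A1 reached a TPM of 1 only with DMSO, so it had to differ in order to be tested. CYP1B1, a target of the receptor, had 29.8 and 8.87 TPM against 4.94 and 13.6 with poly I:C (log2 fold change -0.91, SE 0.66, adjusted p = 0.60), so its groups overlapped. The GC-corrected fit called CYP1B1 lower (-1.21, adjusted p = 0.029), and also AHRR, the repressor of the receptor, 2 of 7 genes then tested, against 5.60% of all genes. With depc CYP1B1 had 48.4 and 27.8 against 10.2 and 3.35 (log2 fold change -2.43, SE 0.66, adjusted p = 0.11). CYP1A1, the classic target, was low in all 4 libraries with poly I:C (1.83 and 1.12 against 0.997 and 0.680). Of 16 tested sirtuin and NAD genes 0 were called, and 5 lay higher and 1 lower without overlap, against 28.0% and 6.90% of all genes. The deacetylase SIRT1 had 7.52 and 2.08 against 4.77 and 12.6. NNMT, which methylates nicotinamide, had 173 and 215 against 116 and 90.6 (log2 fold change -0.91, adjusted p = 0.075). The mitochondrial sirtuin SIRT4 had 5.94 and 6.97 against 12.3 and 12.1 (log2 fold change 0.83, adjusted p = 0.13). After the GC correction SIRT4 was called higher and NNMT and the coactivator PPARGC1A lower, 1 and 2 of the 16, against 4.99% and 5.60% of all genes. Of 20 tested NRF2 genes 0 were called, and their median of 0.29 was close to the 0.30 of all genes. It was 0.05 without DMSO replicate 2 and 0.09 without resveratrol replicate 2, where that of all genes was 0.06 and 0.12. HMOX1, heme oxygenase, had 21.1 and 30.0 against 36.7 and 29.6, and NQO1, a quinone reductase, 72.4 and 60.3 against 61.9 and 60.5. OSGIN1, an oxidative stress-induced growth inhibitor, had 4.45 and 6.88 against 17.4 and 12.1 (log2 fold change 1.25, adjusted p = 0.097). Of the NRF2 list, 5 genes lay higher and 2 lower without overlap. After the GC correction OSGIN1 was called higher and TKT, a transketolase, lower, 1 each of 19, against the same shares. The estrogen receptor list had 0 genes past the filter.

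Of 23 glycolysis and hypoxia genes tested 0 were called. Without overlap, 10 lay lower and 5 higher, against 6.90% and 28.0% of all genes, and the median was -0.29. It was -0.13 without DMSO replicate 1, and between -0.35 and -0.22 without each of the other 3 libraries. ENO1 (enolase) had 1869 and 2530 TPM against 1433 and 1232 (adjusted p = 0.15), and PGK1 (phosphoglycerate kinase) 342 and 315 against 178 and 191 (adjusted p = 0.15). The neuronal enolase ENO2 had 78.7 and 88.0 against 151 and 125 (adjusted p = 0.11). The GC-corrected fit called 8 of the 23 lower and 1, ENO2, higher, against 5.60% and 4.99% of all genes. The mitochondrial mRNAs, transcribed from the genome that is the source of mitochondrial double-stranded RNA, had a median of 0.11 over 13 genes with 0 called. That is -0.19 relative to the median of all genes, and 3 of the 13 were above that median. Without overlap, 4 lay higher and 1 lower, against 28.0% and 6.90% of all genes. The list's median lay between 0.01 (without DMSO replicate 1) and 0.19 (without DMSO replicate 2), and was 0.04 without resveratrol replicate 1. Of the 13, 0 were called after the GC correction. MT-ND1, a complex I subunit, had 6395 and 7019 TPM against 8488 and 9592 (log2 fold change 0.43, adjusted p = 0.17), and MT-ND6, the one mRNA of the light strand, had 3068 and 3550 against 4749 and 4058 (adjusted p = 0.28). Counting did not use strand, so the double-stranded part of these transcripts was not measured. The mitochondrial tRNA gene MT-TP was called at 1.22 (1248 and 1409 against 3142 and 3036 TPM), but it is shorter than a read and was called in 4 of 13 alternatives that keep all libraries.

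The lists of cell death, autophagy, matrix, MHC class I and cholesterol genes had 0 calls. Their counts of genes higher and lower without overlap are read against 28.0% and 6.90% of all genes. Cell death genes had a median of 0.48 over 21 genes (8 higher and 0 lower without overlap), autophagy and lysosome genes 0.37 over 16 (7 and 0), matrix and integrin genes 0.37 over 25 (10 and 2), MHC class I genes 0.13 over 17 (5 and 2) and cholesterol synthesis genes 0.19 over 19 (1 and 0). Without DMSO replicate 2 and without resveratrol replicate 2 the cell death median was 0.05 and 0.17, the matrix median 0.20 and 0.17, and the cholesterol median -0.02 and 0.02. The class I median was 0.24 without DMSO replicate 1, and the autophagy median lay between 0.26 and 0.52 with each of the 4 libraries left out. The initiator caspase CASP9 had 9.46 and 13.6 TPM against 22.2 and 23.7 (adjusted p = 0.11). The autophagy receptor SQSTM1 had 125 and 161 against 305 and 227 (adjusted p = 0.12), and HLA-E, a ligand of NK cell receptors, had 9.28 and 11.4 against 17.4 and 15.8 (adjusted p = 0.19). These 3 genes were called higher after the GC correction, with adjusted p values of 0.034, 0.018 and 0.0498. That fit called 2 of the 21 cell death genes, 3 of the 16 autophagy genes, 2 of 24 matrix genes, 1 of the 17 class I genes and 0 of the 19 cholesterol genes higher and 0 of any of these lists lower, against 4.99% and 5.60% of all genes. The medians of the double-stranded RNA sensor, interferon receptor, JAK-STAT, chemokine, class I, NRF2, sirtuin, mitochondrial, replication, cholesterol, autophagy and matrix lists, and of the 100 genes most raised by poly I:C under 2-CM, changed sign under upper-quartile scaling. Exons of SQSTM1, TP53I3, KIF20A, CD74, ACP5 and MCAM overlap other genes on the opposite strand, and those of PGK1 overlap ATP7A on the same strand.

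The same contrast without poly I:C compares the means of 4 other libraries. Its spread comes from the same fit of 12 libraries, so the calls of the 2 contrasts share that estimate. With depc 187 genes were called, 1.23% of those tested, and 0 in a fit of only the 4 depc libraries. Of the 22 genes called higher with poly I:C, 22 were above 0 with depc and 16 were called. Of the 19 called lower, 18 were below 0 and 14 were called, and SLPI was the exception. Over all genes tested, 75.0% had the same sign in both contrasts. In the test of the difference between the 2 contrasts, 0 genes were called in limma, by limma voom also 0, and 249 had an unadjusted p under 0.05. DHRS2 had -1.96 with depc, PLK1 -2.02, ICAM1 1.55, DDIT3 2.21, PLA2G4C 2.04 and BTG2 1.70. None of these 6 differed between the contrasts at an unadjusted p under 0.05. Of the genes called with poly I:C, 3 of the 22 higher and 4 of the 19 lower did, SLPI, SERPINA3 and AL354740.1 among them. The called genes were picked by a contrast that enters this test. IFI27 was higher with resveratrol under depc, from 0.619 and 0.752 to 3.09 and 4.02 TPM (log2 fold change 1.43, SE 0.24, adjusted p = 0.037). Its difference between the contrasts was -2.05 (unadjusted p = 2.4e-04) and was not called.

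**Figure D5:**
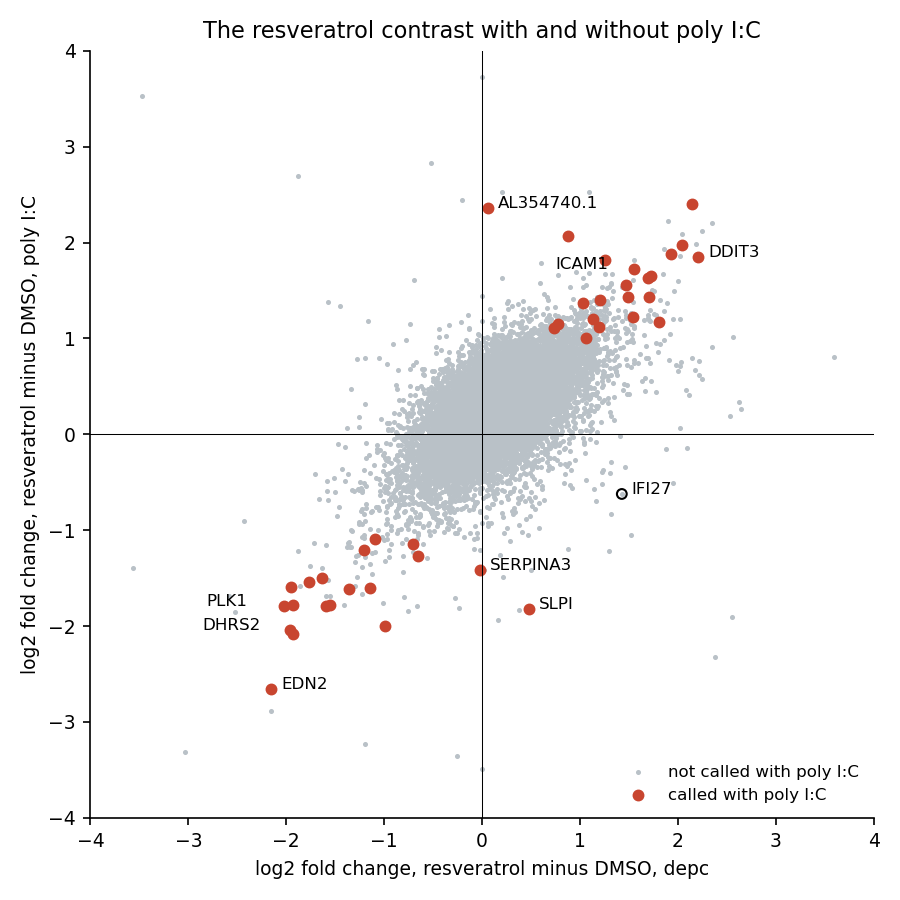
Log2 fold change of resveratrol minus DMSO with poly I:C (vertical axis) against that with depc (horizontal axis) for the 15163 genes tested (1 gene lies outside the axes), with the 41 called with poly I:C as larger points and IFI27 ringed. Called genes lie in the upper right and lower left, apart from SLPI, and SERPINA3 and AL354740.1 lie near 0 on the depc axis.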

How the data were processed

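RNA was measured as poly(A) RNA by stranded paired-end sequencing (101 bases). Per the labels and the submitters' processing notes, reads were handled with bcl2fastq 2.20 and HISAT2 2.1.0 on hg38. Per the file headers, StringTie 2.0.4 with GENCODE 32 gave the deposited coverage, FPKM and TPM of each transcript, with no strand option. Those values hold no counts, so a count test was not used. DESeq2 is named in the notes, and the authors' tables of poly I:C against depc were not used here.

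Here, gene TPM was the sum of transcript TPM per gene ID. limma 3.58.1 (R 4.3.3) was run on log2(TPM + 1) with 6 group means over 12 libraries (6 residual degrees of freedom). A variance trend and Benjamini-Hochberg adjustment over 15163 genes were used. The fit was tested on simulated data with effects larger than those called here and noise independent between genes. That simulation lacked the GC-linked differences between replicates, so it does not show how well the p-values hold here. GC content came from GENCODE 44 transcripts, and each library's deviation was corrected by a smooth curve. No other correction of batches was made, since the labels name none.

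The labels do not say that replicates were separate cultures, so p-values measure the spread between these libraries. Replicate numbers did not pair the 2 groups: differences between replicates 1 and 2 correlated at -0.83 over genes (0.67 between the depc groups, and at most 0.80 between any pair of groups), and the labels name no shared batch. Members and gene lists were chosen with earlier results of these data known. Genes named were the 10 called protein-coding genes with the largest change in each direction (mean TPM of 5 or more, no overlap), up to 4 per list of smallest p, the defining genes of lists and up to 5 called non-coding genes. Other called genes and members named beside small counts were chosen after their values were seen. Depth limits precision for genes near a TPM of 1. Promoters came from RefSeq, and 10226 of 15134 tested symbols had one.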

Additional observations from a re-analysis of the deposited data

How the results depend on the processing

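Every one of the 41 genes called with poly I:C kept its sign in all alternatives in which it was tested. As their groups did not overlap, leaving out a single library could not turn a sign. The fit of the 4 libraries, the replicate block, the covariate and the crossed pairing left each fold change as it was. A sign could therefore turn only under a change of measure or scaling or under the GC correction. The number of genes called did not hold. It was 18 with FPKM (17 of them among the 41), 20 with upper-quartile scaling (7) and 23 with median-of-ratios scaling (11). That number was 19 with a TPM minimum of 5, 0 in a fit of only the 4 libraries, 1566 after the GC correction and 6545 with a covariate of replicate differences. Leaving out single libraries gave 0 to 33. With the replicate block it was 12, and the block in a fit of the 4 libraries (chosen after seeing the data) gave 6. Since the replicate numbers ran against each other in the 2 groups, a crossed pairing was added after seeing the data and gave 5501 calls. The covariate was the main axis of the replicate differences in these same libraries. It takes out part of the spread by construction, so more calls with it are not support. The crossed pairing was likewise chosen by these differences.

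For the depc contrast (187 calls) the number was 42 with FPKM, 21 with upper-quartile scaling, 25 with median-of-ratios scaling, 396 without a filter, 56 with a TPM minimum of 5, 0 in a fit of the 4 depc libraries, 2416 in the GC-corrected fit, and 4788 with the covariate. With the replicate block it was 70, and leaving out single libraries gave 0 to 152. The difference between the contrasts had 0 calls, 39 without a filter and 167 with the covariate, and 0 to 1 with single libraries left out. Apart from what the covariate does by construction, the cause of these shifts was not tested. With 2 libraries a group, differences in low-GC genes below the spread between replicates could not be resolved.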
